A study of Mus musculus with 14 samples.

Results

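The genes described here are 32 interferon-stimulated genes, the transcripts that cells make in response to type I interferon. They were chosen by symbol from a table of 19940 genes. No rule on their values was used, but earlier results of these data were known. All 32 were found, and all 32 were among the 12096 genes tested. The study sequenced polyadenylated RNA of monocyte-derived macrophages sorted from the central nervous system of mice with experimental autoimmune encephalomyelitis, in which the immune system attacks myelin as it does in multiple sclerosis, when disease was at its peak. Hosts had been lethally irradiated and given equal numbers of bone marrow cells from 2 kinds of donor. The 7 wt libraries came from sorted CD45.1 donor macrophages. The 7 mCAT libraries came from sorted CD45.2 donor macrophages that were CCR2creERT2/+ and mcat lsl/wt: they carried a tamoxifen-inducible Cre recombinase at Ccr2, a chemokine receptor gene of monocytes, and a Cre-dependent catalase directed to mitochondria. Tamoxifen is listed for both groups, and wt donor cells carried neither the Cre allele nor the catalase allele as far as the labels say. The CD45 allele also differs between the groups and cannot be told apart from the catalase. For the age of the mice, their strain and the number of hosts, nothing is stated in the labels.

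Each library also has a code, such as C1_2, whose meaning the labels do not give. The codes of 12 libraries join them into 6 pairs of 1 wt and 1 mCAT library (stems C1_2, C1_3, C1_5, C2_1, C2_2 and C2_4), and wt 1 (C1_1) and mCAT 3 (C1_4) have no partner. Stem C1_2 joins wt 2 and mCAT 1, C1_3 joins wt 3 and mCAT 2, C1_5 joins wt 4 and mCAT 4, C2_1 joins wt 5 and mCAT 5, C2_2 joins wt 6 and mCAT 6, and C2_4 joins wt 7 and mCAT 7. Nothing in the labels says whether partners came from 1 host. The p-values measure the spread between these libraries only.

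Type I interferons bind a receptor made of Ifnar1 and Ifnar2, and the kinases Jak1 and Tyk2 then activate transcription factors, Stat2 among them. With Irf9 this factor enters the nucleus and binds a short motif in the promoters of the response genes. The products hinder viruses at many steps, sense foreign nucleic acids, or feed back on the pathway. In macrophages of the inflamed central nervous system the response is of interest because interferon beta is used as a treatment for multiple sclerosis.

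Values are normalised counts, obtained by undoing the log2-scale transformation of the deposited table, and differences are on the deposited log2 scale. Normalised counts are not divided by gene length, so they are compared between libraries and not between genes. The lowest member value in any library was 150 normalised counts (Mx2 in mCAT 7), so every member was measured well above the filter of 10 in every library. Depth, a rough estimate here, was 16.5 M reads (M for mega) in wt 7 and 27.6 M to 47.0 M in the other 13 libraries. All 10 macrophage and monocyte markers were detected in all 14 libraries. Cat, the catalase gene, was 0.29 higher in mCAT on the log2 scale in the paired fit (limma adjusted p = 0.385), and this measure does not separate the mitochondrial catalase from the cell's own.

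Promoters are shown because the members vary together from library to library and because the letters of the interferon response motif can be read in them. The sequences are the 200 bases before the start of transcription in RefSeq on GRCm38.p6, read 5′ to 3′ on the strand of the gene. Capitals mark the core of the motif, which is GAAA, any 2 bases and GAAA again, or its reverse complement, which is TTTC, any 2 bases and TTTC again. Overlapping matches form 1 run.
Isg15, chr4:156200819-156201018, minus strand: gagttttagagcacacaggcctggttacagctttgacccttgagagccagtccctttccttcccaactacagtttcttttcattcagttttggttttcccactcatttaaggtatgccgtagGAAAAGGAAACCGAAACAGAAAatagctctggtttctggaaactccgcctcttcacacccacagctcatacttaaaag
Ifit1, chr19:34640689-34640888, plus strand: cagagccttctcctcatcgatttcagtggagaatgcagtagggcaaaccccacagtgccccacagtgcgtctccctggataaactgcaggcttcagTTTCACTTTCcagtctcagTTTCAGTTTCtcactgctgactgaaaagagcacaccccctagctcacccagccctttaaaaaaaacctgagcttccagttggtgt
Ifit3, chr19:34583329-34583528, plus strand: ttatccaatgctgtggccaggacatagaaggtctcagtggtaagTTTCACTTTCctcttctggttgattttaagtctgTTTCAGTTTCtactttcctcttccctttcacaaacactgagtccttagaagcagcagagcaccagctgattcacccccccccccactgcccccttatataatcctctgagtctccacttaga
Ifit3b, chr19:34607757-34607956, plus strand: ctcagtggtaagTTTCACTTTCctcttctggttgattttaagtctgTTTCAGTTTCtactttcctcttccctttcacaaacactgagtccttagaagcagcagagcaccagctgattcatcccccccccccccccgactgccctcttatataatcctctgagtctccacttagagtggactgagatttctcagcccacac
Oas1a, chr5:120907526-120907725, minus strand: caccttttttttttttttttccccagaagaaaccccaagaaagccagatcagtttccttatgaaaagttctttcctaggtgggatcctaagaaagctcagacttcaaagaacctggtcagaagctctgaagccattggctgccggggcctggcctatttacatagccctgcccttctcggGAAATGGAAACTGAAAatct
Rsad2, chr12:26456453-26456652, minus strand: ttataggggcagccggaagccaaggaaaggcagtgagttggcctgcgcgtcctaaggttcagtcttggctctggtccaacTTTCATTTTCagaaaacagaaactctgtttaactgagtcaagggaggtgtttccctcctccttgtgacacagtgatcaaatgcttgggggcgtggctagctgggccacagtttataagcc
Isg15, Oas1a, Ifit1, Ifit3 and Ifit3b each hold more than 1 match, and Rsad2 holds 1. The matches of Isg15 lie at 78 to 66 bases before the start, counted at their first base, and those of Oas1a lie closest to it, at 20 and 14 bases. In an alignment of the Ifit3 and Ifit3b windows, 258 of 340 columns (75.9%) were identical. Columns with a gap count as different here, so the share is lower than that of the bases that face each other. The windows are offset, with the first match at -156 from the start in Ifit3 and at -188 in Ifit3b. Both keep the same pair of matches. Of the 23 members with a RefSeq window of 300 bases (250 before to 50 after the start), 14 (60.9%) hold the motif on either strand. Over all genes with such a window the figure was 1079 of 27025 (3.99%). A match is a description of letters and not a measured binding site.

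Between the genotypes, none of the 32 members was called, at an adjusted p under 0.05 in limma. Over all genes tested, 24 of 12096 (0.198%) were called. At an unadjusted p under 0.05 the count was 0 of 32 members, beside 649 of all genes (5.37%). The median difference of the members, mCAT minus wt, was -0.08 on the log2 scale, and that of all genes was -0.00. With the stem as a block, which uses the 12 paired libraries and drops wt 1 and mCAT 3, none of the members was called either, against 38 of all genes (0.314%), and the median of the members was -0.02. At an unadjusted p under 0.05 that paired fit gave 2 of 32, Oas3 and Ifi27l2a, beside 9.24% of all genes.

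The intervals bound how large a difference could have been missed, and the bound depends on the fit. In the paired fit, 29 of the 32 intervals at 95% confidence lay inside -0.5 to 0.5 on the log2 scale, and all 32 lay inside -1 to 1. The 3 that reached past 0.5 were those of Oas3, Ifi27l2a and Parp14. This bound takes the stem as the pairing, which the labels do not state. The intervals of the unpaired fit were wider. The narrowest was that of Ifih1 (-0.29 to 0.32) and the widest that of Isg20 (-1.38 to 0.93). No member had wt and mCAT values that did not overlap (29 of all genes, 0.240%), and no member went the same way in all 6 pairs (649 of all genes, 5.37%). Averaged over the members, the difference within a pair was -0.02 ± 0.09 (SD, n = 6 pairs) on the log2 scale. It ran from -0.16 in C1_5 to 0.10 in C2_4.

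**Figure D1:**
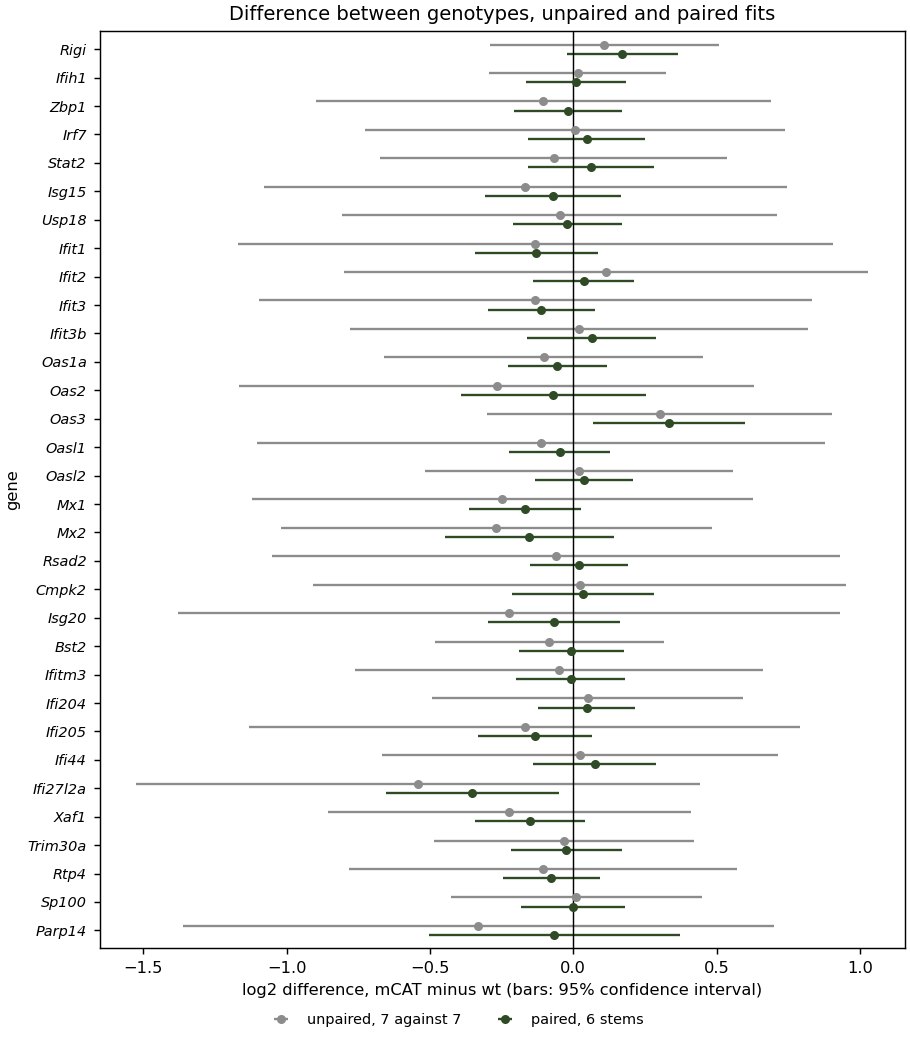
Difference between mCAT and wt libraries for each of the 32 genes on the log2 scale (horizontal axis), with grey points for the fit of 7 against 7 libraries and dark points for the fit of 6 pairs; bars are 95% confidence intervals. The paired intervals are the shorter, and 2 of them, those of Oas3 and Ifi27l2a, leave out 0.

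While partners of a stem were alike, the stems differed widely. The mean of the 32 members, each centred on its own mean over the 14 libraries, was 0.81 (wt 4) and 0.65 (mCAT 4) in C1_5 and 0.63 in both libraries of C2_1. In C1_2 the means were -0.09 (wt 2) and -0.20 (mCAT 1), and in C1_3 they were -0.03 (wt 3) and 0.01 (mCAT 2). In C2_2 they were -0.80 (wt 6) and -0.82 (mCAT 6), and in C2_4 they were -0.96 (wt 7) and -0.87 (mCAT 7). The unpaired libraries wt 1 and mCAT 3 stood at 0.75 and 0.29. The means of the 8 stems, the 2 with a single library included, thus spanned 1.66 on the log2 scale (3.17-fold), whereas the largest difference within a pair was 0.16 (1.12-fold). All 32 members were above their own mean in wt 4, mCAT 4, wt 5 and mCAT 5. All 32 were below it in mCAT 6, wt 7 and mCAT 7, and 31 were in wt 6, where Oas2 was the exception.

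**Figure D2:**
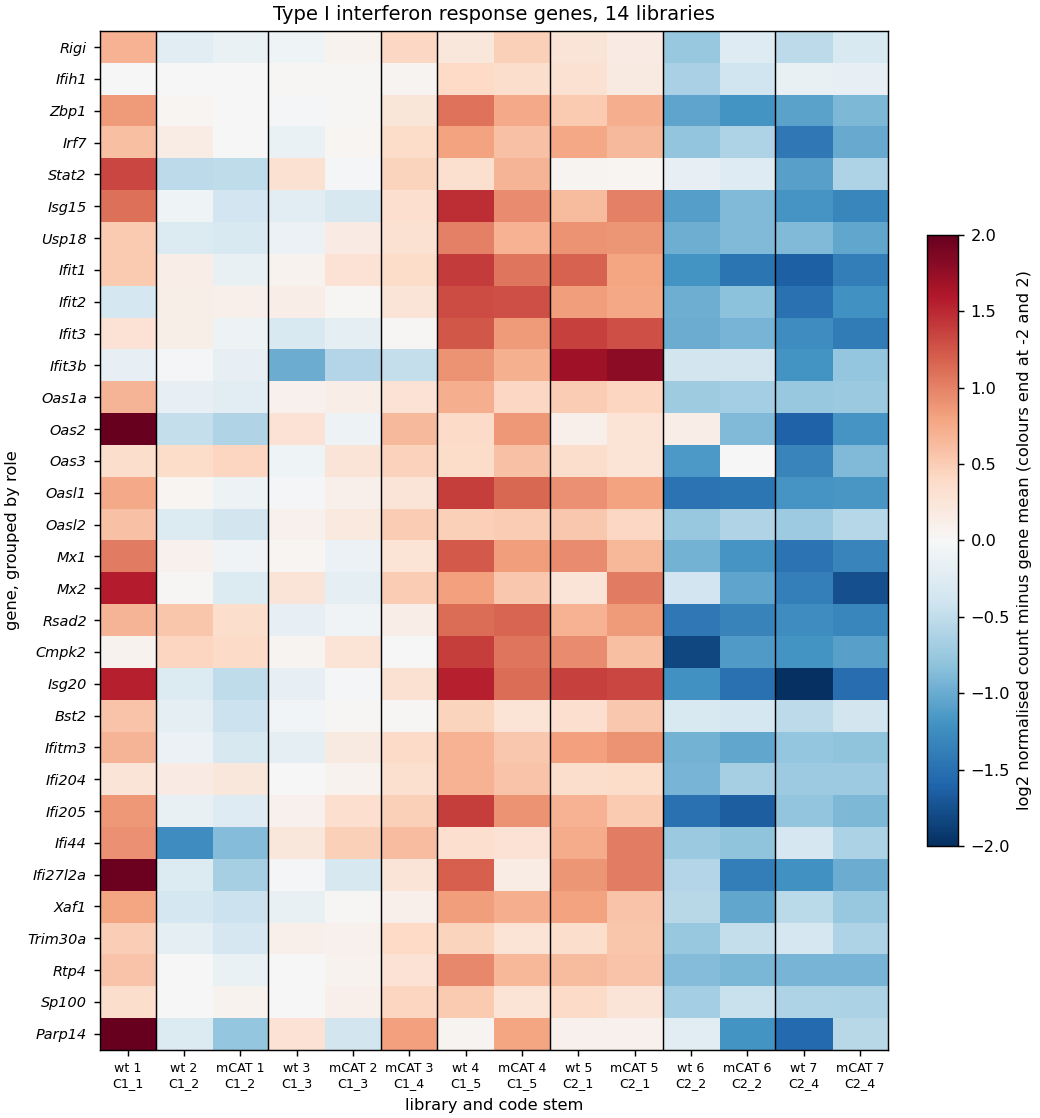
Log2 normalised count of each gene (rows, grouped by role) in each library (columns, ordered by code stem, black lines between stems) minus the mean of the gene over the 14 libraries. Columns of C1_5 and C2_1 are red throughout, columns of C2_2 and C2_4 are blue nearly throughout, and the columns of a pair resemble each other.

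The likeness of partners was measured for each gene by an intraclass correlation over the 6 complete stems, which is near 1 where partners agree and stems differ. Its median was 0.960 over the members (from 0.398 for Parp14 to 0.994 for Rsad2) and 0.389 over all genes, and 1.29% of all genes exceeded the median of the members. It was at least 0.9 for 24 members and under 0.8 for 5, namely Rigi, Oas2, Oas3, Ifi27l2a and Parp14. The difference within a pair was of ordinary size: its median was 0.19 on the log2 scale for the members and 0.23 for all genes. The SD between stem means was not, with a median of 0.72 for the members and 0.22 for all genes. Among themselves the members correlated over the 14 libraries at 0.206 to 0.992, with a median of 0.860, and none of the 496 pairs of members was below 0. Partners share their stem, so these are not 14 independent points.

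**Figure D3:**
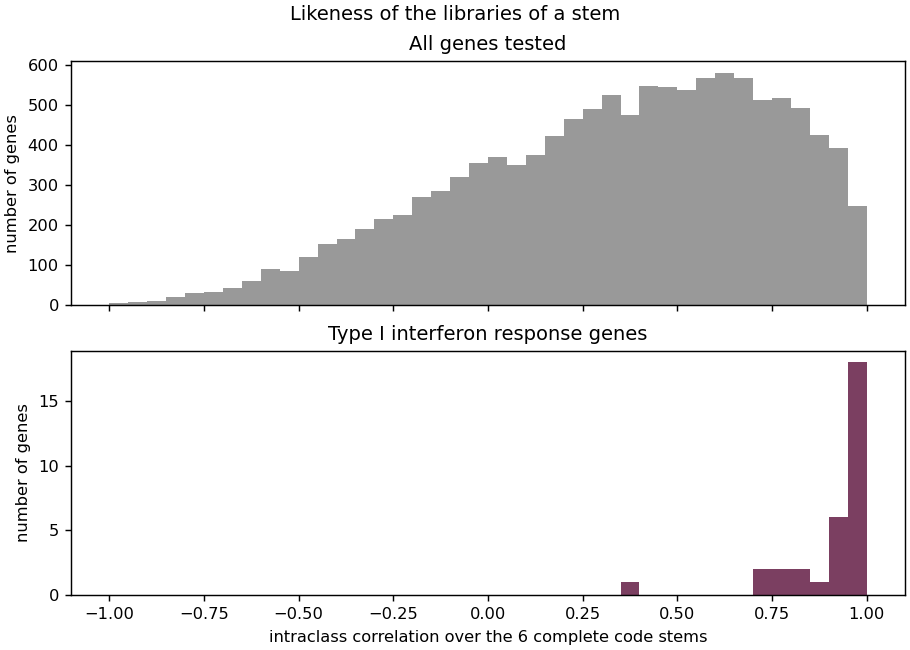
Number of genes (vertical axes) by intraclass correlation over the 6 complete code stems (horizontal axis), for all 12096 genes tested above and for the 32 response genes below. The response genes gather at the right end, 24 of them at 0.9 or more, while all genes spread broadly around a median of 0.389.

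Among the 3 cytosolic sensors, Ifih1 (MDA5), which detects long double-stranded RNA, varied least of all members, by 2.08-fold from its lowest to its highest library. Rigi, which detects RNA with a triphosphate end, ran from 1275 normalised counts in wt 6 to 3498 in wt 1. It was higher in the mCAT library of 5 of 6 pairs, with a paired difference of 0.17 on the log2 scale (95% interval -0.02 to 0.36, limma adjusted p = 0.582). Zbp1, a sensor of nucleic acids in the Z form, followed the member mean closely (r = 0.98 over 14 libraries). Its values ran from 3019.8 in mCAT 6 to 14681 in wt 4.

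Irf7 is the transcription factor that amplifies interferon production. In wt 1 to wt 7 its normalised counts were 26662, 19466, 15866, 30643, 29810, 10097 and 6455. In mCAT 1 to mCAT 7 they were 17458, 17863, 22590, 26319, 27484, 11400 and 8722. The 4 libraries of C2_2 and C2_4 were the lowest in either genotype, and the genotypes overlapped, at 19857 ± 9598 over the wt and 18834 ± 7133 over the mCAT libraries (SD, n = 7). The paired difference was 0.05 (95% interval -0.16 to 0.25, limma adjusted p = 0.896). Stat2, a subunit of the factor that drives the response, was highest in wt 1, at 8023, against at most 5125 elsewhere. Its lowest value was 1502 in wt 7.

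Isg15 is a ubiquitin-like protein that is joined to other proteins. The normalised counts were 3853, 1682, 1527, 4978, 2768, 835 and 790.2 in wt 1 to wt 7. In mCAT 1 to mCAT 7 they were 1377, 1441, 2247, 3441, 3591, 966 and 725. The libraries of C2_2 and C2_4 were the lowest in each genotype, and the pair C1_5 (wt higher) and the pair C2_1 (mCAT higher) went opposite ways. Group means were 2348 ± 1591 over the wt and 1969.7 ± 1159 over the mCAT libraries, with a paired difference of -0.07 (95% interval -0.31 to 0.17, limma adjusted p = 0.867). Usp18, which removes Isg15 from its targets and restrains the receptor, stood at 7456, 4298, 4777, 10439, 9680.2, 2639 and 2814 in wt 1 to wt 7. Its mCAT values, in the same order, were 4214, 5814, 6429, 8384, 9591, 2826 and 2533. Partners differed by a mean of 0.14 on the log2 scale, and by at most 0.31 (C1_5). The paired difference of Usp18 was -0.02 (95% interval -0.21 to 0.17, limma adjusted p = 0.952).

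**Figure D4:**
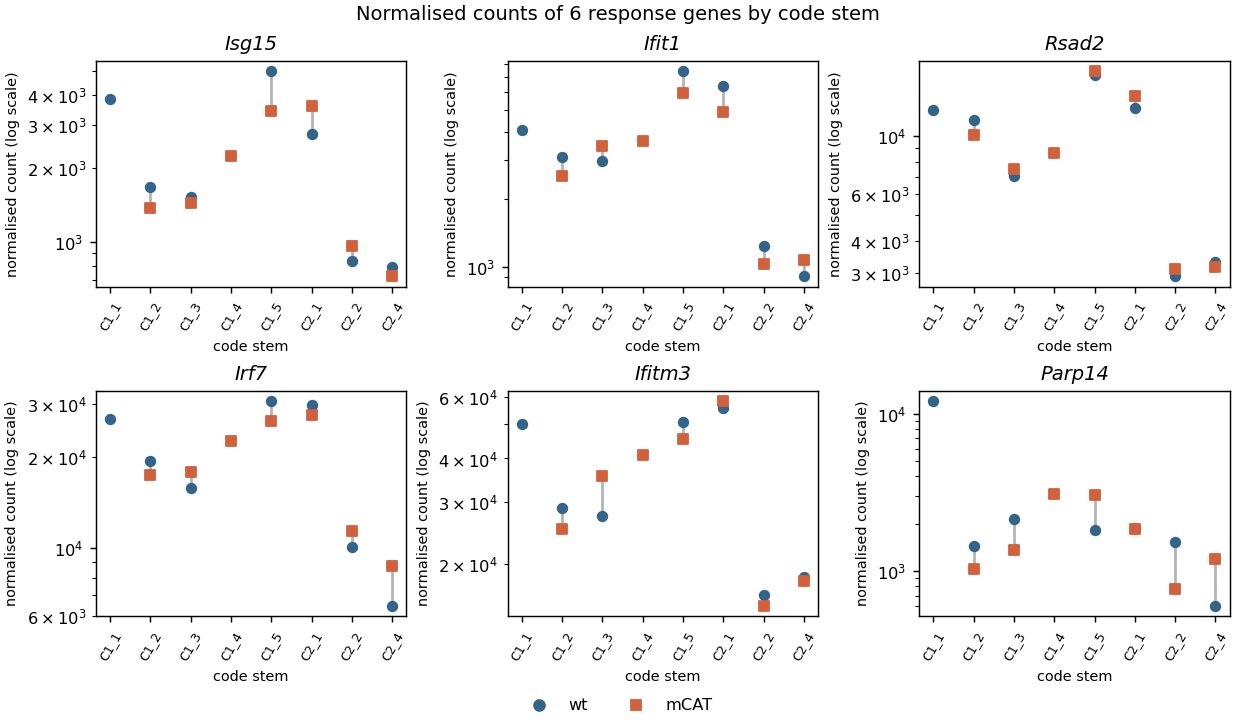
Normalised counts (vertical axes, log scale) of 6 response genes in each library, ordered by code stem (horizontal axis); circles are wt, squares are mCAT, and a line joins partners. Isg15, Ifit1, Rsad2, Irf7 and Ifitm3 are lowest in C2_2 and C2_4, and Parp14 has a single high point in wt 1.

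The IFIT proteins bind RNA and block the translation of foreign messages, and their 4 genes here lie in 1 cluster on chromosome 19. Ifit1 values were 4069, 3077, 2962, 7414, 6403, 1238 and 908 in wt 1 to wt 7. Those of mCAT 1 to mCAT 7 were 2535, 3438, 3639, 5943, 4901, 1029 and 1077. Both genotypes were highest in C1_5 and C2_1 and lowest in C2_2 and C2_4, and they overlapped. Group means of Ifit1 were 3725 ± 2450.3 over the wt and 3223 ± 1840.5 over the mCAT libraries, and the paired difference was -0.13 (95% interval -0.34 to 0.09, limma adjusted p = 0.686). For Ifit3 the wt values were 6400, 5709.8, 4228, 12366, 13597, 2629 and 2223. The mCAT values of Ifit3 were 4866, 4624, 5326, 9416, 12751, 2741 and 1994. C2_1 was as high as C1_5 for this gene, and the lowest were again C2_2 and C2_4. The paired difference of Ifit3 was -0.11 (95% interval -0.30 to 0.07, limma adjusted p = 0.686). Ifit2 had partners within a mean of 0.11 on the log2 scale, and ran from 1877 in wt 7 to 13130 in wt 4.

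Ifit3b is a near copy of Ifit3, with 97.8% identity over 1700 bases of transcript (GENCODE M21), so the division of reads between them is uncertain. It was highest in C2_1, at 1396 and 1486, and lowest in wt 7, at 187. Its share of the summed counts of both genes was 4.89% to 7.29% in the 8 libraries coded C1 and 7.77% to 11.2% in the 6 coded C2. The shares of the code prefixes did not overlap. This was chosen after the values were seen, and whether it comes from the cells or from the division of reads was not tested.

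The OAS family makes the oligoadenylates that activate RNase L, and the members Oas1a, Oas2 and Oas3 lie together on chromosome 5. Oas1a had values of 17399, 9736, 11463, 17934, 15456, 6614 and 6409 in wt 1 to wt 7. In mCAT 1 to mCAT 7 it had 9375, 11924, 13206, 14436, 14693, 6783 and 6465. The order of the stems was that of the member mean (r = 0.99), at a narrower 2.80-fold range. The paired difference of Oas1a was -0.06 (95% interval -0.23 to 0.12, limma adjusted p = 0.854). Oas1a shares 97.6% of 1861 transcript bases with Oas1g, so these reads may also be divided between copies.

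Oas3 had the smallest p of the members in the paired fit and was higher in mCAT. Its wt values were 4206, 4240.5, 3098, 4252, 4182, 1485 and 1313. For mCAT 1 to mCAT 7 they were 4415, 3942, 4528, 4915, 3961, 3258 and 1789. The mCAT library was higher in 5 of 6 pairs, most of all in C2_2, where wt 6 had 1485 and mCAT 6 had 3258, and the genotypes overlapped. The paired difference was 0.33 (95% interval 0.07 to 0.60, limma adjusted p = 0.466) and the unpaired one 0.30 (95% interval -0.30 to 0.90, adjusted p = 0.893). Oas2 was highest in wt 1, at 5772 against 2372 in the next library, and it spanned 13.5-fold. Oasl1, which in mice restrains the translation of Irf7, had closely matched partners (intraclass correlation 0.992). It ran from 1188 in wt 6 to 8574 in wt 4. Its neighbour Oasl2 varied less, by 2.54-fold.

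Mx1 encodes a GTPase that blocks viral replication. The wt values of Mx1 were 2922, 1509, 1459, 3327, 2732, 740.3 and 509. The mCAT values of Mx1 were 1347, 1312, 1714, 2543, 2242, 629 and 568. In 5 of 6 pairs the mCAT library was the lower, by up to 0.37 on the log2 scale, and the genotypes overlapped. The paired difference was -0.17 (95% interval -0.36 to 0.03, limma adjusted p = 0.592). Mx2, a gene of the same family, was also lower in mCAT in 5 of 6 pairs but higher by 0.67 in C2_1. Its wt values were 1509, 517, 605, 893, 606, 387 and 196, and wt 1 was the highest library. Its mCAT values were 417, 448, 716, 732, 1034, 244 and 150.0, and the paired difference was -0.15 (95% interval -0.45 to 0.14, limma adjusted p = 0.734). Mx1 and Mx2 share 94.8% of 920 transcript bases.

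Rsad2 encodes viperin, which makes a nucleotide that stops viral polymerases. Its wt values were 12595, 11495, 7031, 17081, 12797, 2923 and 3314, in wt 1 to wt 7. Its mCAT values were 10072, 7506, 8606, 17628, 14146, 3118 and 3168, in mCAT 1 to mCAT 7. Partners of Rsad2 were the most alike of the 32 members relative to the spread of the stems. Group means were 9605 ± 5314 over the wt and 9178 ± 5367 over the mCAT libraries, and the paired difference was 0.02 (95% interval -0.15 to 0.19, limma adjusted p = 0.948). Cmpk2, its neighbour on chromosome 12 and a mitochondrial nucleotide kinase, ran from 470.1 in wt 6 to 4324 in wt 4. Isg20, a nuclease that degrades RNA, had the largest SD over the 14 libraries, 1.09 on the log2 scale. Its wt values were 2826, 801, 861, 2817, 2492, 415 and 239. The mCAT values of Isg20 were 679.8, 936, 1190, 2095, 2425, 343 and 334. The highest library, wt 1, had 11.8 times the value of the lowest, wt 7, and the paired difference was -0.07 (95% interval -0.30 to 0.16, limma adjusted p = 0.870).

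Bst2 (tetherin) holds budding viruses at the cell surface. In wt 1 to wt 7 it had 13531, 7951, 8764, 12401, 11486, 7377 and 6321 normalised counts. In mCAT 1 to mCAT 7 it had 6748, 9247, 9213, 10924, 13131, 7120.3 and 7055. It varied by only 2.14-fold, and mCAT 1 of C1_2 lay among the libraries of C2_2 and C2_4. The paired difference of Bst2 was -0.01 (95% interval -0.19 to 0.18, limma adjusted p = 0.983). Ifitm3, which blocks the fusion of viruses in endosomes, had wt values of 50188, 28938, 27381, 50813, 55646, 16381 and 18397. The mCAT values of Ifitm3 were 25270, 35607, 40922, 45554, 58284, 15219 and 17918. C2_2 and C2_4 held the 4 lowest libraries, at no more than 18397, and every other library was at 25270 or more. The paired difference of Ifitm3 was -0.01 (95% interval -0.20 to 0.18, limma adjusted p = 0.981).

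Ifi204 and Ifi205 belong to a family of nuclear DNA-binding proteins whose genes lie together on chromosome 1. Ifi204 had wt values of 17099, 15963, 14436, 23095, 18305, 7533 and 8689. The mCAT values of Ifi204 were 16779, 15046, 17959, 21149, 18470, 9059.5 and 8683. The libraries of C2_2 and C2_4 were at most 9059.5 and the other 10 at least 14436. For Ifi205 the wt values were 25691, 12761, 14992, 36704, 22730, 5035 and 8152. For mCAT they were 11746, 17766, 19670, 26158, 20245, 4490 and 7538. The paired differences were 0.05 for Ifi204 and -0.13 for Ifi205, with limma adjusted p-values of 0.878 and 0.654. Ifi204 shares 96.9% of 1363 transcript bases with Ifi211, and Ifi205 97.4% of 1101, so the division of reads among these copies is uncertain.

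Of the 7 other members, Ifi27l2a, a small membrane protein, had the largest difference between genotypes. Its wt values were 38068, 8107, 9560.3, 22400, 18110, 6499 and 4223. Against these, the mCAT libraries had 6157, 7853, 11736, 10886, 19955, 3777 and 4928. The mCAT library was lower in 4 of 6 pairs, most of all in C1_5 (by 1.03 on the log2 scale), and higher in C2_1 and C2_4, and the genotypes overlapped. The unpaired difference was -0.54 (95% interval -1.53 to 0.44, limma adjusted p = 0.890). The paired one was -0.35 (95% interval -0.65 to -0.05, adjusted p = 0.481). Xaf1, which promotes cell death, had wt values of 6991, 3188, 3650.5, 7222, 7097, 2757 and 2802. The mCAT values of Xaf1 were 3009, 4119.6, 4378, 6740.5, 6015, 1986 and 2407. Of the 6 pairs, 5 were lower in mCAT, with a paired difference of -0.15 (95% interval -0.34 to 0.04, limma adjusted p = 0.614).

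Parp14, an ADP-ribosyltransferase, was the member that least followed the stems. Its wt values were 12068, 1450, 2157, 1835, 1876, 1524 and 600.4. Those of mCAT were 1034, 1356, 3088, 3042, 1862, 769 and 1201. The value of wt 1 was 20.1 times that of wt 7, and the next library after wt 1 was mCAT 3, at 3088. Partners of Parp14 differed by a mean of 0.59 on the log2 scale, the widest of the members, with mCAT lower in 4 pairs and higher in C1_5 and C2_4. Among the rest, Rtp4, a chaperone of receptors, had the highest correlation with the mean of the other members (0.99). Sp100, a component of nuclear bodies, varied by 2.30-fold, and Trim30a, a member of the tripartite motif family, by 2.47-fold. Trim30a shares 90.1% of 1719 transcript bases with Trim30d. Ifi44 was the only member with its lowest library outside C2_2 and C2_4, at 437 in wt 2 (C1_2). Over the 32 members, the highest library was in C1_5 for 18, wt 1 for 9 and in C2_1 for 5, and the ratio of the highest to the lowest library had a median of 5.10.

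The code prefix divides the libraries into 8 coded C1 (5 stems) and 6 coded C2 (3 stems). None of the 32 members was called between the prefixes, with the stem as a random block in limma, against 328 of all genes (2.71%), of which 194 (1.6%) were higher and 134 (1.11%) lower in C2. At an unadjusted p under 0.05 stood 20 of 32 members, beside 2069 of all genes (17.1%). All 20 were lower in C2, beside 969 (8.01%) lower and 1100 (9.09%) higher of all genes. The differences of 31 of the 32 were below 0, as were those of 51% of all genes, and Ifit3b, at 0.24, was the exception. The median difference, C2 minus C1, was -0.71 for the members and -0.01 for all genes.

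The smallest adjusted p-values of the members were 0.0999 for Ifi204 (-0.67, 95% interval -1.10 to -0.23), 0.101 for Oas3 (-0.77, -1.28 to -0.26), 0.115 for Ifi205 (-1.07, -1.80 to -0.33) and 0.123 for Rsad2 (-1.07, -1.82 to -0.31), all from limma. These p-values are too small, because the fit used 1 correlation of 0.463 between partners for all genes and the intraclass correlations of these members were 0.709 to 0.994. With 1 mean per stem, 6 of 32 had an unadjusted p under 0.05, and the smallest adjusted p in limma was 0.242. The C2 stems were not alike: the libraries of C2_1 were among the highest and those of C2_2 and C2_4 the lowest. Without stems C2_2 and C2_4, an alternative chosen after the data were seen that leaves C2 with 1 stem, the median of the members was 0.31. Leaving out either library of C2_1 gave 1 called member, Oas3 without wt 5 (-0.90, limma adjusted p = 0.0312) and Mx2 without mCAT 5 (-1.03, adjusted p = 0.0408).

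The genotype difference was also compared between the prefixes, over the 6 complete stems. No gene was called in this test of the interaction in limma (0 of 12096, 0%), and 318 of all genes (2.63%) and 1 member, Isg15, had an unadjusted p under 0.05. The difference for Isg15 was 0.43 higher in C2 than in C1 on the log2 scale (95% interval 0.00 to 0.87, adjusted p = 0.9997).

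The other genes of the pathway were read from a list of 133, of which 118 had a row and 113 were tested. None of the 113 was called between the genotypes in limma, and 2 had an unadjusted p under 0.05 in the unpaired fit and 15 in the paired fit, beside 5.37% and 9.24% of all genes. Of the ligands, Ifnb1 (interferon beta) was low, with wt values of 0, 0, 2.47, 8.99, 35.8, 41.4 and 22.8 normalised counts. Its mCAT values were 7.17, 0, 0, 35.3, 49.4, 14.8 and 45.4. It was 0 to 8.99 in the C1 libraries apart from mCAT 4, and 14.8 to 49.4 in the C2 libraries, so C2_2 and C2_4, low in the members, were not low in Ifnb1. The prefix difference of Ifnb1 was 0.77 (95% interval 0.32 to 1.21, limma adjusted p = 0.0584), and its correlation with the member mean was -0.21 over 14 libraries. Ifng, the type II interferon, was highest in wt 1, at 175, followed by 96.6 and 74.2 in the pair C1_3, and it was at most 24.3 elsewhere. The T cell marker sum was also highest in wt 1, at 861 normalised counts, against 144 to 703 in the other libraries. So was the natural killer cell marker sum, at 211 against 0 to 106, with all 5 of its markers at 0 in some library. The part of either in the Ifng value was not tested. Ifna2, Ifna4, Ifna14, Ifnk and Ifnz were at most 7.31 in any library and were not tested.

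The receptor genes did not follow the members. Ifnar1 ran from 4599 in wt 7 to 9121 in mCAT 3, and Ifnar2 from 5526 in wt 1 to 10784 in wt 7, with correlations with the member mean of 0.25 and -0.69. The other 4 receptor genes, for type II and type III interferon, correlated at -0.79 to -0.12. Among them Ifngr1, a receptor chain for interferon gamma, ran from 8009 in wt 1 to 16526 in mCAT 1. None of the 6 was called in any comparison, and Ifnar2 and Il10rb had an unadjusted p under 0.05 between the code prefixes, both higher in C2. Of the 11 kinases and transcription factors none was called, and those with an unadjusted p under 0.05 included Jak1 (paired genotypes, higher in mCAT) and Stat3 and Irf5 (code prefixes, lower in C2). Irf9, the DNA-binding subunit that joins Stat2, ran from 2279.6 in wt 7 to 4356 in wt 4 (r = 0.80). The paired genotype difference of Irf9 was 0.12 (95% interval -0.07 to 0.31, limma adjusted p = 0.676).

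**Figure D5:**
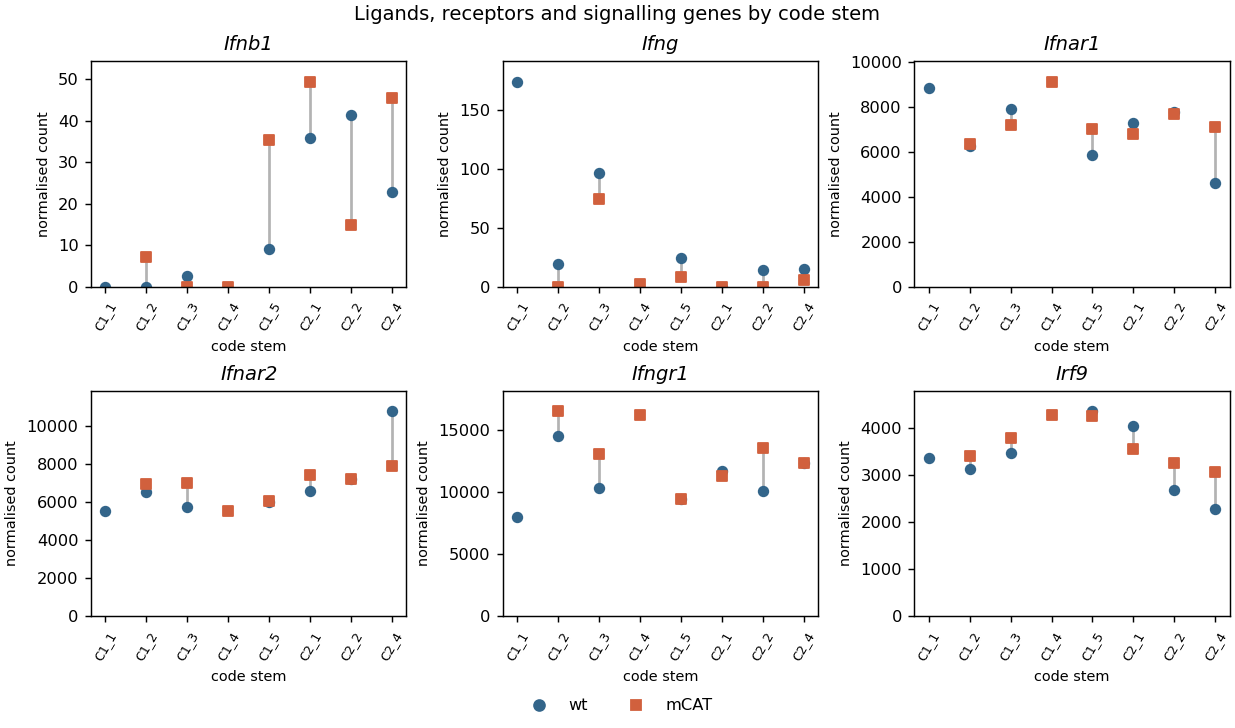
Normalised counts (vertical axes, from 0) of 2 ligands, 3 receptor genes and the transcription factor Irf9 in each library, ordered by code stem (horizontal axis); circles are wt, squares are mCAT, and a line joins partners. Ifnb1 is at 14.8 or more in every C2 library, Ifng is highest in wt 1, Ifnar1 and Ifnar2 vary by 1.98-fold and 1.95-fold, Ifngr1 is lowest in wt 1, and Irf9 is lowest in wt 7.

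Between the code prefixes, 2 of the 113 were called and both were lower in C2, beside 134 of all genes called lower (1.11%). Samhd1, which breaks down nucleotides, had wt values of 38789, 21318, 21663, 38995, 25432, 8478 and 12042, and mCAT values of 20144, 23215, 26583, 34033, 22404, 9936 and 11784. Its difference was -0.998 (95% interval -1.52 to -0.47, limma adjusted p = 0.0394). Parp10, an ADP-ribosyltransferase, had wt values of 10617, 4329.5, 6530.5, 8709.9, 5368, 2289.8 and 1945, and mCAT values of 3753, 5455, 6902, 11451, 4783, 2042 and 2468. Its difference was -1.22 (95% interval -1.83 to -0.62, limma adjusted p = 0.0271). The lowest 4 libraries for both were those of C2_2 and C2_4. Neither call was kept with 1 mean per stem (limma adjusted p = 0.227 and 0.178). Both calls also lay near the threshold of 0.05 and were lost on leaving out any 1 of several libraries. Leaving out wt 1, wt 4, wt 6, wt 7, mCAT 2, mCAT 3, mCAT 4, mCAT 6 or mCAT 7 lost the call of Samhd1 (limma adjusted p = 0.0507 to 0.0859), and leaving out wt 6, wt 7, mCAT 3, mCAT 6 or mCAT 7 lost that of Parp10 (0.0525 to 0.0678). Without stems C2_2 and C2_4 the differences were -0.21 and -0.45.

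Of 65 other interferon-induced genes tested, 24 correlated with the member mean at 0.9 or more over the 14 libraries, with a median of 0.824. Among 16 genes of nucleic acid sensing 2 did so, Dhx58 (0.97), a relative of Rigi, and Myd88 (0.93), the adaptor of Toll-like receptors. Of 13 inhibitors 2 did so, Trex1 (0.97), which destroys stray DNA, and Samhd1 (0.94). Axl and Mertk, receptors that damp interferon responses and take up dying cells, went the opposite way, at -0.82 and -0.88. Axl ran from 7407 normalised counts in wt 1 to 35842 in mCAT 6.

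By likeness alone, 127 of the 12064 genes tested that are not members correlated at 0.9 or more with the member mean, and 54 at -0.9 or less. The 15 most alike were Ms4a4c, Daxx, Ifi211, Ube2l6, Phf11a, Plac8, Phf11b, Trim30c, Klrk1, Tbl2, Ifi213, Slfn1, Trex1, Dhx58 and Ccl7, at 0.987 to 0.965. Of these, 11 were on the pathway list, and Plac8, Klrk1, Tbl2 and Ccl7 were not. Ube2l6 encodes the enzyme that passes Isg15 to its targets. Plac8 had the widest spread of the 15, with an SD of 1.57 on the log2 scale. Ifi27, which is related in name to Ifi27l2a, went the opposite way, at -0.91.

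Other features of the libraries moved with the members. Of the variance of all genes tested, 34.5% lay along the first principal component, which correlated with the member mean at 0.923, or 0.917 when the members were left out of it. Lyz2, the lysozyme gene of macrophages, took 8.14% and 5.88% of all normalised counts in wt 6 and mCAT 6 and 9.68% and 7.82% in wt 7 and mCAT 7, against 1.70% to 3.80% in the other libraries. The 10 most abundant genes took 21.8% to 26.5% of the counts in those 4 libraries and 12.1% to 16.8% elsewhere. Of the microglia markers, Tmem119 ran from 2213 to 2746 normalised counts in those 4 libraries and from 550.5 to 3500.3 elsewhere, and P2ry12 from 1034 to 1453 there and from 563 to 1395 elsewhere, so these ranges overlapped. The 6 markers of plasmacytoid dendritic cells, a main source of type I interferon, summed to 317 to 453 there and 97.1 to 375 elsewhere, and 3 of the 6 were at 0 in some library. Siglech was the largest part of that sum there, at 214 to 324, and ran from 46.8 to 319 elsewhere. Ly6d, another of the 6, was 0 to 8.35 there and 0 to 70.3 elsewhere, so the sum is no measure of the number of these cells. The 5 markers of conventional dendritic cells summed to 104 to 151 there and 230 to 747 elsewhere, also with 3 at 0 in some library. Singly, only Cd209a did not overlap, at 0 to 20.2 there and 35.3 to 344 elsewhere. Clec9a ran from 32.7 to 94.7 there and from 40.3 to 229 elsewhere, and Xcr1, Flt3 and Zbtb46 overlapped too. This sum is likewise no measure of the number of cells. Of the 10 macrophage and monocyte markers, Cd68 ran from 30599 in wt 1 to 97368 in mCAT 6, and Mrc1 from 304 in wt 4 to 1047 in mCAT 1. These markers did not move together: their correlations with the member mean ran from -0.78 for Lyz2 to 0.85 for Fcgr1. The part of these features in the differences between stems was not tested. In bulk libraries, fewer cells with an interferon response and less response RNA per cell cannot be told apart.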

How the data were processed

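Polyadenylated RNA of 14 libraries (7 wt, 7 mCAT) was sequenced after Smart-seq2 preparation, which keeps no strand information. Per the submitters' processing notes, FastQC, fastp and Salmon were used with the build GRCm39, with versions and annotation not given in the sources used here. What the authors deposited are values on a log2 scale, in the form of a variance-stabilising transformation, although the table is titled as raw counts. Undoing its closed form, with the constant from the lowest deposited value, gave normalised counts. Whole reads were not recovered, so depth is a rough estimate from the spacing of low values and limits the precision of low genes such as Ifnb1 only in a way that could not be quantified.

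Genes with a normalised count of at least 10 in at least 7 libraries were tested with limma 3.58.1 in R 4.3.3 (trend, robust moderation with statmod 1.5.0) on the deposited log2 values. P-values were 2-sided and Benjamini-Hochberg adjusted over all 12096 genes, with a threshold of 0.05. The fits were tested on simulated data. The genotype fit compared 7 against 7 libraries. A paired fit had the code stem as a fixed block, without wt 1 and mCAT 3. The code prefixes were compared with the stem as a random block. Deviations from the group means correlated within all 6 stems, from 0.232 to 0.659 (0.221 to 0.658 without the members), so the stem was taken to pair the libraries. Title numbers 1 to 3 join other libraries (-0.294, 0.158 and 0.252) and were not taken. The lowest stem value, that of C2_1, lay below the 0.252 of title number 3, so these correlations alone do not settle the pairing.

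The members and lists were chosen with earlier results of these data known. Values in every library are given for Isg15, Ifit1, Ifit3, Mx1, Oas1a, Rsad2, Irf7, Usp18, Ifitm3 and Bst2, for the 4 members with the largest SD and for the 4 with the smallest p between genotypes and between prefixes. Of the pathway list, ligands, receptors, Irf9 and called genes are named (some listed genes are not reported here), and by likeness the 15 genes nearest the member mean; other genes named were chosen after their values were seen. Alternatives changed the filter, scaling, block, moderation and libraries. Promoters and gene positions are from RefSeq on GRCm38.p6 (all 32 members matched), not the build of the deposited values.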

Additional observations from a re-analysis of the deposited data

Results flagged for a closer look

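In 44 genes (the members and the pathway genes named by the rule), 88 groups of 7 libraries were looked at for a library far from the others, by the gap to the nearest library as a share of the range of the group against Dixon's critical value at 95%. There were 4 such groups, and chance flags about 1 in 20 groups. For Oas3, mCAT 7 was the lowest of the mCAT libraries, with a share of 0.5885. For Parp14, wt 1 was the highest of the wt libraries, at 0.5926. For Ifng, mCAT 2 was the highest of the mCAT libraries, at 0.6602. For Ifnar2, wt 7, the library of lowest estimated depth, was the highest of the wt libraries, at 0.5961.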

How the results depend on the processing

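No member was called between genotypes under any of 24 alternatives (smallest adjusted p 0.466 to 0.997 in limma), and the median difference of the members ran from -0.24 (without wt 7) to 0.08 (without mCAT 6) on leaving out 1 library and from -0.09 to -0.02 under other filters, scalings, blocks and moderation, and was -0.14 without stems C2_2 and C2_4. The replicate block by stem gave 0 calls and a median of -0.02, and that by title number 0 calls and -0.08; the block changed no call of a member. The sign of a member's uncalled genotype difference changed in 106 of 448 values on leaving out a library. Between the code prefixes, the count of members called was 0 and became 1 with no block and without wt 5 or mCAT 5 (0 to 1 over the left-out libraries). The median difference ran from -0.80 (without mCAT 5) to -0.61 (without wt 7) on leaving out a library and from -0.79 to -0.53 under the other fits, and was 0.31 without stems C2_2 and C2_4. Leaving out those stems was chosen after seeing the data and leaves C2 with 1 stem. The genotype by prefix test called no member under any of 18 alternatives. Depth is known only roughly, and the number of stems (5 and 3) limits the prefix comparison.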
